A study of Rattus norvegicus with 12 samples.

Results

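The natriuretic peptide system was followed here through 8 genes, chosen by name: the 3 peptide precursors Nppa, Nppb and Nppc, the 3 receptors Npr1, Npr2 and Npr3, and the precursor-cleaving proteases Corin and Furin. All 8 were found among the 30560 genes of the count table, each in a single row, and all 8 reached the 10 reads in total that a gene needed to enter the tests. The hearts came from 12 male rats (Wistar in the study's methods, Wistar Han elsewhere in it) operated on at 7 weeks of age. Sham rats had the chest opened without a suture around the coronary artery and then received vehicle (4 rats). MI rats had the left anterior descending coronary artery permanently ligated, which causes a myocardial infarction, and received vehicle (4 rats). MI + UA rats had the same ligation and received urolithin A (UA), a gut microbial metabolite of ellagitannins described as an activator of mitophagy (4 rats). All 3 groups were gavaged daily for 8 weeks. The study gives the UA dose and the start of dosing differently in different places, so neither is stated here. The atria were cut away before the left ventricle was fixed, and RNA was taken from sections of 20 µm through its middle block, so infarcted and spared muscle were not separated. The libraries held 6228706 to 19031695 reads on genes. Rat 66 is MI + UA by its label but appears among the vehicle-treated MI rats in the study's echocardiography data. It was counted by its label, and values with it in MI are given beside the results that they move most.

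Nppa encodes atrial natriuretic peptide (ANP) and Nppb brain or B-type natriuretic peptide (BNP), both hormones of heart muscle cells. Ventricular muscle makes them when its wall is stretched, and both promote sodium excretion and relax vessels. Nppc encodes C-type natriuretic peptide, made largely outside heart muscle. Corin, a membrane protease of cardiomyocytes, cuts the ANP precursor, and furin, a protease of the secretory pathway, cuts the precursors of BNP and C-type peptide. ANP and BNP act through Npr1, a receptor that makes cyclic GMP, and C-type peptide acts through its relative Npr2. Npr3 lacks that activity and removes the peptides from the circulation.

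Nppa and Nppb lie next to each other on chromosome 5, in the same orientation, and Nppa alone passed the test after infarction, so the sequences before their start sites are shown first. They come from RefSeq (build GRCr8, plus strand), whereas the reads were counted on mRatBN7.2. Positions are counted back from the annotated start, with -1 the last base before it. Capitals mark GATAA, a core of the site bound by GATA factors, and GGAATG, the opposite strand of CATTCC, the M-CAT element bound by TEAD factors.
Nppa, chr5:163711934-163712183, bases -250 to -1: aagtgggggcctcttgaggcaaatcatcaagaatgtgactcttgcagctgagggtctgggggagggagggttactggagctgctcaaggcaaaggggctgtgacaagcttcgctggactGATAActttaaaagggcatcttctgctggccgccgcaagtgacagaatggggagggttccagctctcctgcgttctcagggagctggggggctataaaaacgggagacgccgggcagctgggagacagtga
Nppb, chr5:163699758-163699947, bases -250 to -61: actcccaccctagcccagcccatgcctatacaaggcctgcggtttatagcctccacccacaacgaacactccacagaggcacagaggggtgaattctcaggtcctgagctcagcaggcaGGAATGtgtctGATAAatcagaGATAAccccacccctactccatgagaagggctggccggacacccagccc
The Nppa stretch held GATAA at -131 to -127. The Nppb stretch held GATAA at -120 to -116 and at -109 to -105, with CATTCC on the opposite strand at -131 to -126, and another GATAA at -57 to -53 lay beyond the stretch printed. In the 250 bases before the start, GATAA on either strand occurred in 23.5% of 33469 rat promoters and CATTCC in 12.1%. Among the 6 members with a promoter entry, GATAA was found in these 2 alone and CATTCC in Nppb alone. TNAAGTG, a form of the Nkx2-5 site, AGGTGT, a T-box site, and the CArG box were in none of the 6, against 9.89%, 11.6% and 1.5% of all promoters. Such matches describe the letters of this window. Only exact letters were searched, so a site that differs by a letter or is cut by the window's edge was not counted. The Nppa stretch opens with aagtg, the last letters of TNAAGTG, whose first letters would lie outside the window. Npr2 and Furin had no entry.

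Nppa (ENSRNOG00000008176) was the member that rose after infarction. Its level, in reads scaled to a common library size (CPM, after TMM normalization), was 18.3, 80.1, 49.8 and 49.4 in Sham rats 12, 17, 32 and 38. In MI rats 36, 57, 61 and 89 it was 318, 479, 344 and 181 CPM. In MI + UA rats 29, 58, 64 and 66 it was 347, 252, 235 and 183 CPM. Every infarcted heart, with or without UA, lay above every Sham heart, and the infarcted groups overlapped each other. Means with SD over 4 hearts were 49.4 ± 25.2 CPM in Sham, 331 ± 122 CPM in MI and 254 ± 68.4 CPM in MI + UA. By edgeR's quasi-likelihood test over all 18182 genes, with Benjamini-Hochberg adjustment, Nppa was 6.70-fold higher in MI than in Sham (95% interval 4.28 to 10.5; log2 fold change 2.74, SE 0.31, adjusted p = 7.94e-06). This rise was the 24th in order of size among 11986 genes whose log2 CPM averaged 1 or more. For MI + UA versus Sham, which uses the same Sham rats, the log2 fold change was 2.37 (SE 0.31, edgeR adjusted p = 5.06e-05).

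Nppb (ENSRNOG00000008141) did not pass the test. Its level was 100, 240, 223 and 216 CPM in Sham rats 12, 17, 32 and 38. In MI rats 36, 57, 61 and 89 it was 203, 365, 186 and 175 CPM. In MI + UA rats 29, 58, 64 and 66 it was 259, 175, 191 and 258 CPM. The groups overlapped throughout: Sham rat 12 stood below all other hearts, MI rat 57 above them, and the remaining 3 Sham hearts lay above 3 of the 4 MI hearts. The means were 195 ± 63.7, 233 ± 89.3 and 221 ± 44.4 CPM (SD, n = 4 each). The log2 fold change in MI versus Sham was 0.25 (SE 0.23, 95% interval -0.22 to 0.73, edgeR adjusted p = 0.562). It was 0.04 without Sham rat 12 and -0.05 without MI rat 57, so its sign rested on 1 heart. The gene had 800 to 4592 reads per heart.

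**Figure D1:**
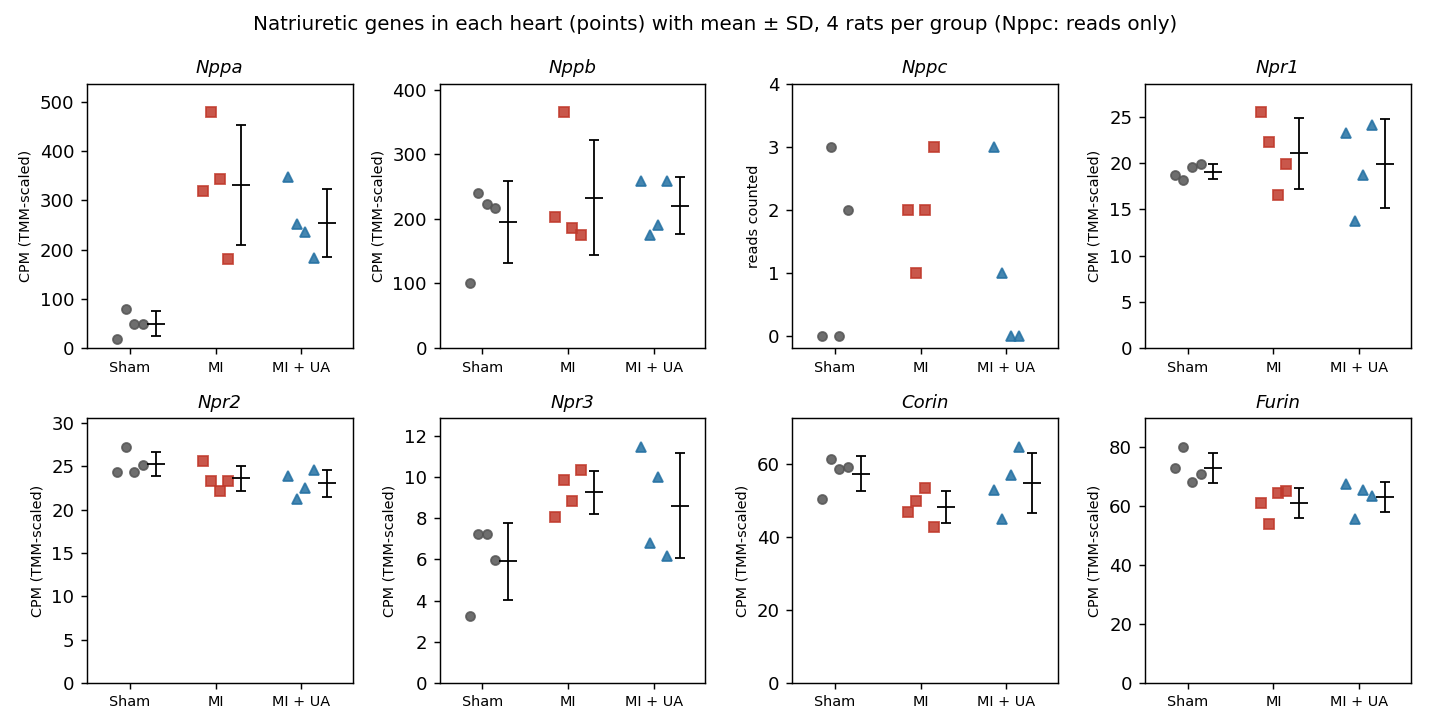
Level of each natriuretic gene in each heart. Points are rats, in CPM (reads scaled to a common library size), with black bars for the mean ± SD of 4 rats, and the Nppc panel shows the reads counted instead. Nppa lies between 18.3 and 80.1 CPM in Sham and between 181 and 479 CPM in the infarcted hearts, while the groups overlap for Nppb.

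The level of Nppa relative to Nppb was also taken within each heart. Gene lengths differ, so the ratio of Nppa to Nppb CPM has no meaning as an amount, and only its change between groups is read. On the log2 scale it was -2.45, -1.58, -2.16 and -2.13 in Sham rats 12, 17, 32 and 38. It was 0.64, 0.39, 0.88 and 0.05 in MI rats 36, 57, 61 and 89, and 0.42, 0.53, 0.30 and -0.50 in MI + UA rats 29, 58, 64 and 66. No Sham heart reached the infarcted range. The difference between MI and Sham was 2.57 on the log2 scale, or 5.94-fold (two-sided exact permutation p = 0.0286, below which 4 rats against 4 cannot go; 0.171 after adjustment over the 6 ratio tests, which did not pass). With rat 66 counted in MI, 5 rats against 4, it was 2.37 (exact permutation p = 0.00794, the smallest that those numbers allow, not adjusted). Between MI + UA and MI the difference was -0.30 (exact permutation p = 0.4), and it was 0.12 with rat 66 counted in MI.

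Across the 8 infarcted hearts, log2 CPM of Nppa and Nppb had Pearson's r = 0.56 (exact permutation p = 0.151) and Spearman's rho = 0.57 (exact permutation p = 0.151). Without rats 57 and 89, the hearts farthest from the median of Nppa, r was -0.17 (exact permutation p = 0.733) and rho 0.14 (exact permutation p = 0.803). Those 2 hearts are the highest and the lowest in Nppa, so leaving them out also narrows its range, and neither set of hearts passed the test. Within Sham, rat 12 had the lowest level of both genes and rat 17 the highest.

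**Figure D2:**
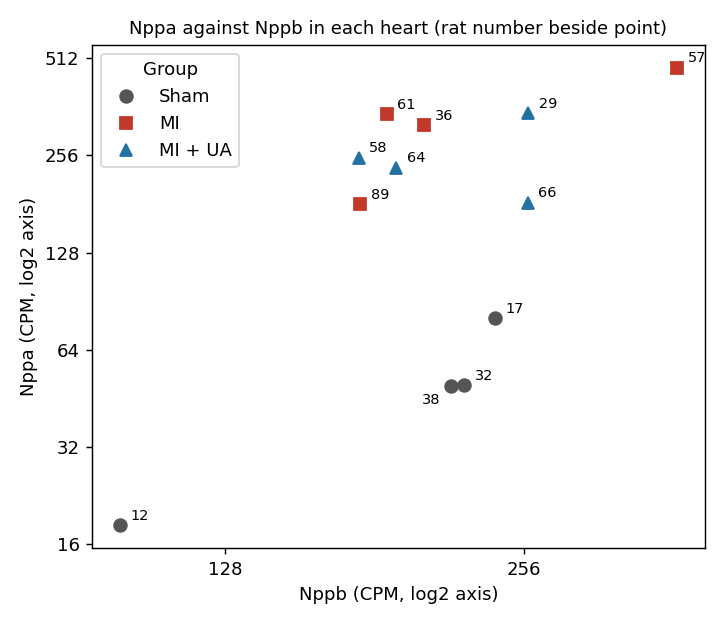
Nppa against Nppb in each heart, both in CPM on log2 axes, with the rat number beside each point. The infarcted hearts are displaced upward from the Sham hearts along the Nppa axis and overlap 3 of the 4 Sham hearts along the Nppb axis.

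Nppc (ENSRNOG00000018854) was at the edge of detection. Its 12 libraries held 17 reads in all: 0, 3, 0 and 2 in Sham rats 12, 17, 32 and 38, then 2, 1, 2 and 3 in MI rats 36, 57, 61 and 89, and 3, 1, 0 and 0 in MI + UA rats 29, 58, 64 and 66. No library exceeded 3 reads, the upper limit that a count of 0 allows, so no fold is given and a difference was not detectable at this depth.

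Among the receptors, Npr3 (ENSRNOG00000019184), the clearance receptor, had the largest difference. Its level was 3.26, 7.22, 7.24 and 5.96 CPM in Sham rats 12, 17, 32 and 38. In MI rats 36, 57, 61 and 89 it was 8.04, 9.88, 8.82 and 10.3 CPM, all above the highest Sham heart. In MI + UA rats 29, 58, 64 and 66 it was 11.5, 6.81, 10.0 and 6.19 CPM, and the last group overlapped both others. The log2 fold change in MI versus Sham was 0.66 (SE 0.23, 95% interval 0.18 to 1.14, unadjusted p = 0.00961), and the edgeR adjusted p of 0.0720 missed the threshold of 0.05. Of the alternatives run, 3 brought it past the threshold: no filter on low counts (adjusted p = 0.0333), a fit of MI and Sham alone (0.0456) and a fit without MI + UA rat 29 (0.0496). The others did not, among them the fits without Sham rat 12 (log2 fold change 0.45, adjusted p = 0.223), without MI rat 89 (0.59, adjusted p = 0.172) and with rat 66 counted in MI (0.55, adjusted p = 0.125). The gene had 26 to 201 reads per heart.

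Npr1 (ENSRNOG00000014684), the receptor for ANP and BNP, lay close together in Sham, at 18.7, 18.2, 19.5 and 19.9 CPM in rats 12, 17, 32 and 38. It spread further in MI, at 25.5, 22.3, 16.5 and 19.9 CPM in rats 36, 57, 61 and 89, and in MI + UA, at 23.2, 13.7, 18.7 and 24.1 CPM in rats 29, 58, 64 and 66. The SD was 0.783 CPM in Sham, 3.81 CPM in MI and 4.77 CPM in MI + UA, and this difference in spread was not tested. The infarcted hearts lay on both sides of the Sham range. The log2 fold change in MI versus Sham was 0.14 (SE 0.15, 95% interval -0.18 to 0.47, edgeR adjusted p = 0.642). Npr2 (ENSRNOG00000015991), the receptor for C-type peptide, stayed within 24.3 to 27.3 CPM in Sham, 22.2 to 25.7 CPM in MI and 21.2 to 24.6 CPM in MI + UA. The log2 change from Sham to MI was -0.10 (SE 0.09, 95% interval -0.29 to 0.10, edgeR adjusted p = 0.609), an interval that leaves out a change of 1.5-fold in either direction.

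Relative to Npr1 in the same heart, Npr3 was on average 1.49-fold higher in MI than in Sham (log2 difference 0.57, exact permutation p = 0.114, adjusted over the 6 ratio tests 0.229). Without Sham rat 12 this log2 difference was 0.33, and with rat 66 counted in MI it was 0.42. Between MI + UA and MI the log2 difference was -0.05 (exact permutation p = 0.8). Rat 66, with a log2 ratio of -1.95, lay apart from the other 3 MI + UA hearts, which fell between -1.01 and -0.89. With that rat counted in MI the difference was 0.35 (exact permutation p = 0.25).

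The proteases had lower mean levels in the MI hearts, and neither passed the test. Furin (ENSRNOG00000011352) was at 73.1, 80.2, 68.3 and 70.8 CPM in Sham rats 12, 17, 32 and 38. In MI rats 36, 57, 61 and 89 it was 60.97, 53.9, 64.7 and 65.2 CPM, and in MI + UA rats 29, 58, 64 and 66 it was 67.7, 55.7, 65.6 and 63.5 CPM. All 8 infarcted hearts lay below all 4 Sham hearts. The log2 fold change was -0.25 in MI versus Sham (SE 0.09, 95% interval -0.44 to -0.07, edgeR adjusted p = 0.0727) and -0.21 in MI + UA versus Sham (SE 0.09, edgeR adjusted p = 0.161). DESeq2 gave Furin in MI versus Sham an adjusted p of 0.0392. Setting the mean of both infarcted groups against Sham, a comparison added after the data were seen, gave -0.23 with an edgeR adjusted p of 0.0485, where 13.9% of all genes passed.

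Corin (ENSRNOG00000002302) was at 50.2, 61.3, 58.4 and 59.0 CPM in Sham rats 12, 17, 32 and 38. In MI rats 36, 57, 61 and 89 it was 46.9, 49.7, 53.2 and 42.6 CPM, and in MI + UA rats 29, 58, 64 and 66 it was 52.8, 44.8, 56.8 and 64.6 CPM. Only Sham rat 12 fell within the MI range. The log2 fold change in MI versus Sham was -0.25 (SE 0.11, 95% interval -0.48 to -0.03, edgeR adjusted p = 0.149), and -0.15 with rat 66 counted in MI (adjusted p = 0.452). Of the 9 cardiomyocyte markers, 8 fell in the same comparison, against 5.53% of all genes, with a median log2 fold change of -0.41, beside 0.03 over all genes. Measured against the mean log2 CPM of those 9 markers in each heart, Corin was 0.17 higher on the log2 scale in MI than in Sham (exact permutation p = 0.114, adjusted over the 6 ratio tests 0.229), a difference that did not pass the test and was 0.098 without MI rat 61. Between MI + UA and MI it was 0.15 higher (exact permutation p = 0.171, adjusted 0.257) and did not pass, and it was 0.071 with rat 66 counted in MI. In bulk tissue, fewer cardiomyocytes and less RNA per cardiomyocyte cannot be told apart.

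**Figure D3:**
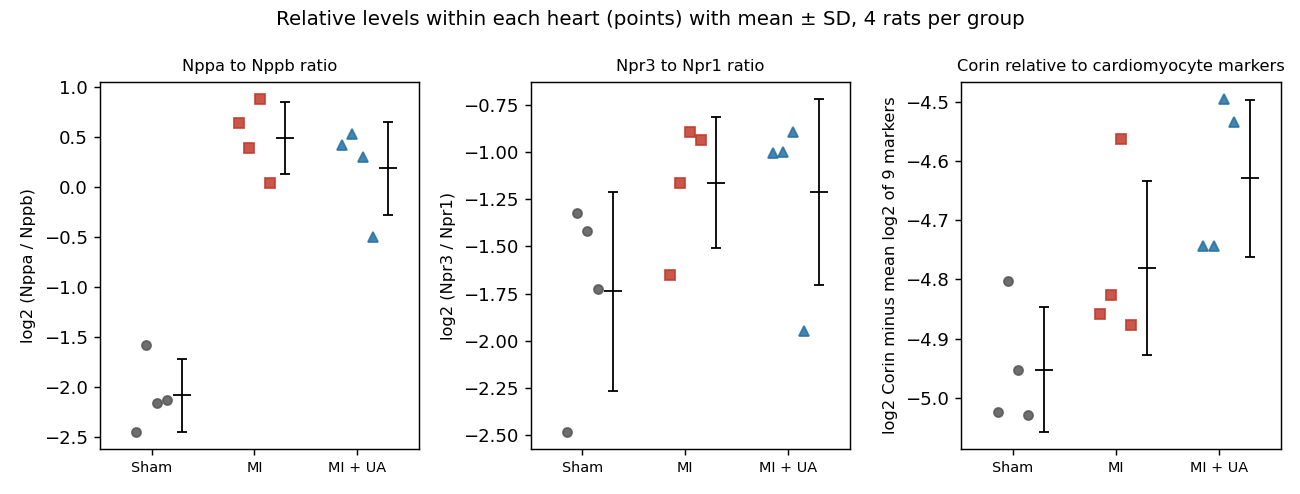
Relative levels within each heart on the log2 scale: Nppa to Nppb, Npr3 to Npr1, and Corin minus the mean of 9 cardiomyocyte markers. Points are rats and bars the mean ± SD of 4 rats; the Nppa to Nppb ratio separates Sham, at -2.45 to -1.58, from the infarcted hearts, at -0.50 to 0.88.

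Counted together in MI versus Sham, 1 of the 8 members had an adjusted p under 0.05, against 11.4% of all genes tested (5.82% higher and 5.53% lower in MI). The groups did not overlap for 3 members, against 15.7% of all genes. Between MI + UA and Sham, 1 of the 8 passed, against 9.44% of all genes, and 2 did not overlap, against 14.3%. Neither share is a result about so short a list. The median log2 fold change of the 7 members other than Nppc was 0.14 in MI versus Sham, beside 0.03 over all genes.

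With UA, no member differed from MI by the test. The question of this comparison is whether UA moved the genes of infarcted hearts, and 0 of the 8 members passed in edgeR, against 0.0% of all 18182 genes, with 689 genes (3.79%) at an unadjusted p under 0.05. DESeq2 also gave 0, with 481 genes at an unadjusted p under 0.05. All 8 members overlapped between MI + UA and MI, where 2.34% of all genes did not. None of the 8 had an unadjusted p under 0.05, and each had an adjusted p of 0.9997.
The intervals show how large a difference these 4 rats against 4 leave possible. For Nppa the log2 fold change was -0.38 (SE 0.28, 95% interval -0.97 to 0.21), which runs from 0.512-fold to 1.16-fold. Leaving out each rat in turn gave -0.58 (without MI rat 89) to -0.14 (without MI rat 57), and -0.57 without MI + UA rat 29. With rat 66 counted in MI it was -0.11. For Nppb it was -0.07 (95% interval -0.54 to 0.40). For Npr1, Npr2 and Npr3 it was -0.05, -0.03 and -0.10, with intervals of -0.36 to 0.25, -0.23 to 0.16 and -0.54 to 0.34. With rat 66 counted in MI these became -0.19 for Nppb, -0.21 for Npr1, -0.08 for Npr2 and 0.17 for Npr3. For Furin it was 0.04 (95% interval -0.14 to 0.23). Corin had the smallest unadjusted p of the 8, 0.0811, with a log2 fold change of 0.19 (SE 0.11, 95% interval -0.03 to 0.42), and with rat 66, its highest heart, counted in MI the value was -1.08e-05.

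**Figure D4:**
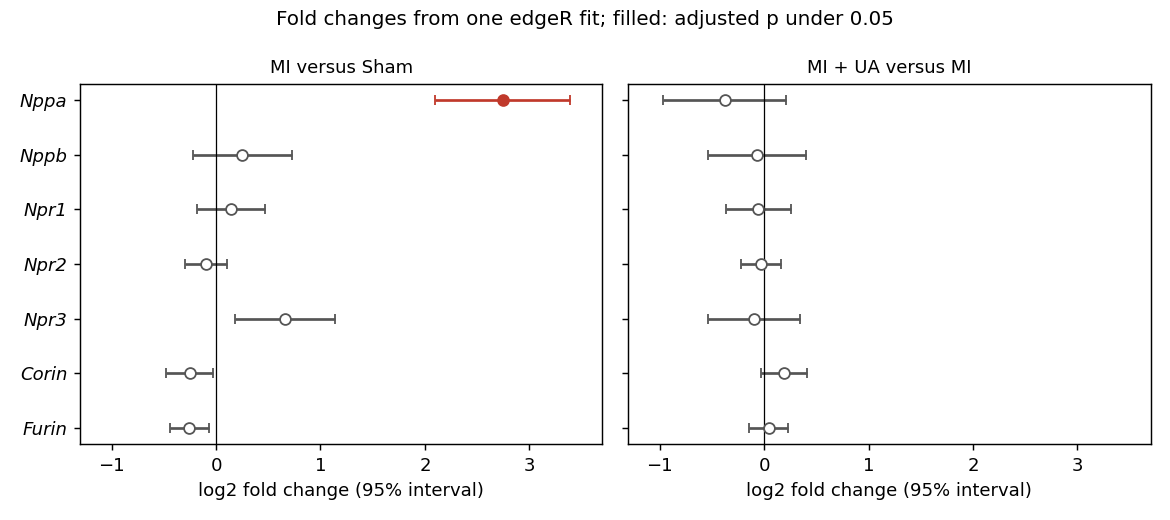
Log2 fold change of 7 members, with 95% intervals, in MI versus Sham (left) and MI + UA versus MI (right), from one edgeR fit; filled red points have an adjusted p under 0.05. Nppa at 2.74 is the one such point, and all 7 intervals on the right include 0; both panels share the MI rats.

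The members also differed in how much hearts of the same group varied. The SD within groups on the log2 scale, pooled over the 3 groups, was 0.65 for Nppa and 0.47 for Nppb, above 98.3% and 93.2% of the same 11986 genes. For Npr3 it was 0.40, above 88.3% of them, though with far fewer reads. It was 0.27 for Npr1, 0.17 for Corin and 0.12 for Furin. For Npr2 it was 0.09, above 4.53% of the genes.

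Deviations from the group means were then compared over the 12 hearts, as a description, since all genes of a heart share its library and block. Among pairs of members, r was 0.80 for Nppa and Nppb, 0.78 for Npr1 and Npr2 and 0.69 for Nppa and Npr3. For Nppa and Nppb it was 0.58 in the 8 infarcted hearts alone, and Sham rat 12 was the lowest heart for both genes. The genes most like each member have the highest r of very many, taken over few hearts. Such values can arise by chance, and no chance level was computed. Out of 11939 genes, the 3 with the pattern most like Nppb were Dtnbp1 (r = 0.98), Ankrd1 (r = 0.96), a nuclear protein of stretched heart muscle, and Vdac3 (r = 0.95), a channel of the outer mitochondrial membrane. For Nppa they were Bcas2 and Ywhah (r = 0.91 each) and Hcfc1r1 (r = 0.90). For Npr1 they were Eml1, Psmg2 and Tpra1 (r of 0.94 to 0.95). For Npr2 they were Cdk5 (r = 0.95), Gja3 (r = 0.94) and Nos3 (r = 0.93), the endothelial nitric oxide synthase. For Npr3 they were Herc2, Metazoa_SRP (ENSRNOG00000048993, a signal recognition particle RNA) and Robo1 (r of 0.90 to 0.92), for Corin Slc35e2b, Pmm1 and Insr (r of 0.88 to 0.90), and for Furin Rbl2, Zfyve26 and Mettl7a (r of 0.95 each).

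Among genes that process or clear the peptides, or act after cyclic GMP, 4 of 20 tested passed in MI versus Sham, against 11.4% of all genes: 1 rose, 3 fell and 16 did not pass. The median log2 fold change was 0.00, beside 0.03 over all genes. Pcsk5, a convertase related to furin, rose from 5.88 ± 0.838 to 10.6 ± 1.49 CPM (SD, n = 4 each; log2 fold change 0.86, edgeR adjusted p = 0.00189). Mme, the peptidase neprilysin that degrades natriuretic peptides, fell from 3.33 ± 0.915 to 1.71 ± 0.598 CPM (SD, n = 4 each; log2 fold change -1.01, edgeR adjusted p = 0.0367). Pde3a, a phosphodiesterase inhibited by cyclic GMP, had a log2 fold change of -0.42 and fell too (edgeR adjusted p = 0.00185). Kcnj11, a subunit of ATP-sensitive potassium channels, fell by 0.46 (edgeR adjusted p = 0.0179). Against Sham, the MI + UA hearts again differed in Pcsk5, Pde3a and Kcnj11, with log2 fold changes of 0.85, -0.38 and -0.39, and Mme, at -0.81, did not pass. The most abundant of those that did not pass were Pam, the peptide-amidating enzyme, Pcsk6, another convertase, and Ide, the insulin-degrading enzyme, with log2 fold changes of 0.06, -0.11 and -0.14.

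Of 22 transcription factors and cofactors that act on Nppa and Nppb, 1 rose and 3 fell in MI versus Sham, against 5.82% and 5.53% of all genes, and the median log2 fold change was -0.13, beside 0.03 over all genes. Nfatc4, a factor activated by calcineurin, rose by 0.50 (edgeR adjusted p = 0.0251). Nfatc2, of the same family, fell by 0.46 (adjusted p = 0.00695), Mef2d, a muscle factor, by 0.30 (adjusted p = 0.0266) and Tbx5, a T-box factor of the heart, by 0.38 (adjusted p = 0.0317). Tead1, which binds M-CAT elements, was among the most abundant of the rest, with a log2 fold change of -0.03. Gata4 was at 86.6 ± 7.14 CPM in Sham and 89.1 ± 8.27 CPM in MI (SD, n = 4 each), a log2 fold change of 0.04 (edgeR adjusted p = 0.872). Nkx2-5 passed in MI + UA versus Sham alone, with log2 fold changes of -0.41 there and -0.35 in MI versus Sham; the difference between the infarcted groups was -0.06 (edgeR adjusted p = 0.9997).

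Other genes that respond to load moved in both directions. Of 8 tested in MI versus Sham, 2 rose and 2 fell, against 5.82% and 5.53% of all genes, and the median log2 fold change was 0.20, beside 0.03 over all genes. Myh6, the fast cardiac myosin, fell by 1.08 (edgeR adjusted p = 1.98e-06) and Myh7, the slow one, rose by 0.69 (adjusted p = 0.0350). Xirp2, a protein of cell junctions in heart muscle, rose by 0.53 (adjusted p = 0.0191), and Atp2a2, the calcium pump of the sarcoplasmic reticulum, fell by 0.49 (adjusted p = 0.000694). Ankrd1 and Acta1, skeletal actin, had log2 fold changes of 0.35 and 0.58 and did not pass. Of 6 endothelin and angiotensin genes tested, 2 rose, against 5.82% of all genes, with a median log2 fold change of 0.38, beside 0.03. Edn1, the precursor of endothelin-1, went from 1.34 ± 0.694 to 5.49 ± 2.39 CPM (SD, n = 4 each; log2 fold change 2.06, edgeR adjusted p = 0.00262), and Agtr1a, an angiotensin II receptor, rose by 1.43 (adjusted p = 0.0158). Both also passed in MI + UA versus Sham, with log2 fold changes of 1.62 and 1.29, as did Ace, the angiotensin-converting enzyme, at 0.56 (edgeR adjusted p = 0.0294), which was at 0.46 in MI versus Sham and did not pass there. No list gene passed between MI + UA and MI: the count was 0 in each of these 4 lists, as it was over all genes.

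Markers of several other cell types also differed between MI and Sham, and their part in the rise of Nppa was not tested. Although the atria had been removed, atrial tissue was looked for first, since it is rich in Nppa. The summed level of 7 atrial markers was 95.6 to 126 CPM in Sham, 155 to 166 CPM in MI and 146 to 174 CPM in MI + UA. In MI versus Sham 2 of the 7 rose (5.82% of all genes did), Dkk3 and Nr2f2, which made up most of the sum, and 4 of the 7 did not overlap between the groups, against 15.7% of all genes. The other 2 of these 4 were Myl4, an atrial myosin light chain, and Bmp10, an atrial growth factor. Myl4 was at 0.655 ± 0.328 CPM in Sham and 1.40 ± 0.381 CPM in MI, and Bmp10 at 0.390 ± 0.183 and 0.786 ± 0.245 CPM (SD, n = 4 each), both higher in every MI heart without passing the test (edgeR adjusted p = 0.108 and 0.377). In MI + UA their means were 1.07 and 0.294 CPM, so Bmp10 was not above its Sham mean there. Bmp10 had 60 reads in all over the 12 hearts. Myl7, another atrial myosin light chain, lay between 0.658 CPM, in MI rat 36, and 10.4 CPM, in MI rat 89, over the 12 hearts. Sln, sarcolipin, lay between 0 and 1.52 CPM. Its mean was lower in MI, at 0.617 ± 0.749 CPM in Sham and 0.217 ± 0.219 CPM in MI (SD, n = 4 each; log2 fold change -1.54). Myl7, Sln and Nr2f1 did not pass. Endocardial markers summed to 32.5 to 47.9 CPM in Sham, 63.7 to 94.7 CPM in MI and 46.3 to 67.5 CPM in MI + UA, and 4 of the 6 rose in MI, against 5.82% of all genes. Endocardial cells are known to make Npr3, and whether they had a part in its level here was not tested. Fibroblast markers summed to 1127 to 1439 CPM in Sham, 2188 to 3574 CPM in MI and 2205 to 3685 CPM in MI + UA, and 6 of the 8 rose in MI. Of 7 macrophage markers 6 rose, and of 8 smooth muscle and pericyte markers 4 rose, each against the same 5.82%. Of 7 endothelial markers 1 fell, against 5.53% of all genes, and adipocyte markers were at or near 0, with at most 3.29 CPM in sum. Cardiomyocyte markers summed to 44559.5 to 49500.1 CPM in Sham, 32063.5 to 38711 CPM in MI and 32923 to 43663 CPM in MI + UA. Most of this sum was Ttn, titin, with means of 35322 CPM in Sham and 25890 CPM in MI. Actc1 was the only cardiomyocyte marker that did not pass in MI versus Sham (edgeR adjusted p = 0.166).

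**Figure D5:**
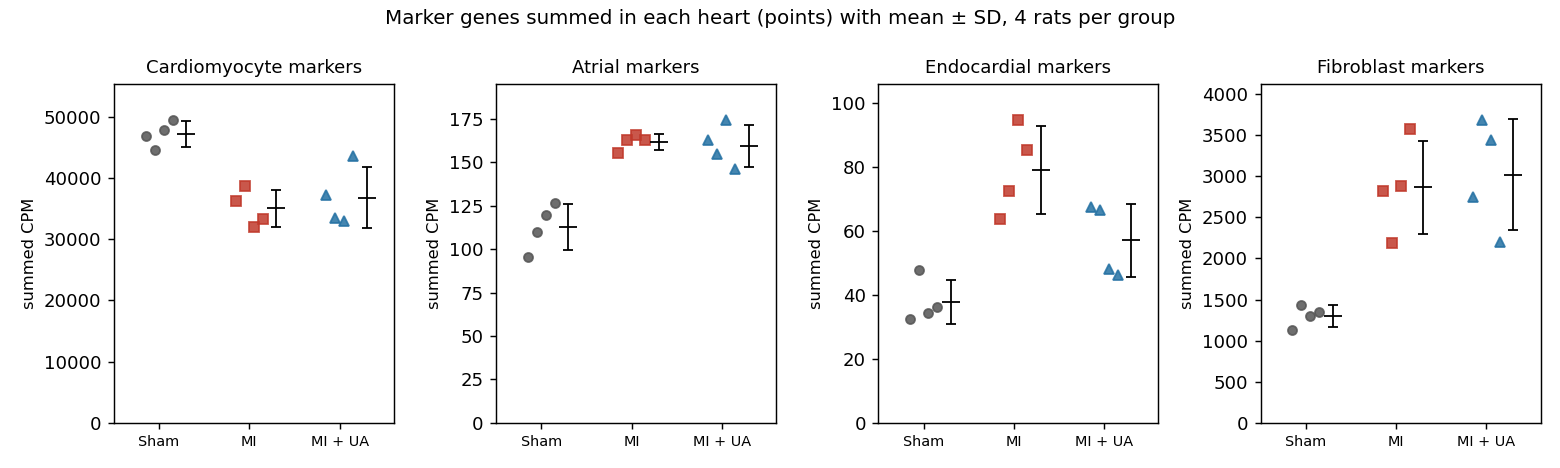
Summed CPM of cardiomyocyte, atrial, endocardial and fibroblast markers in each heart, with the mean ± SD of 4 rats. Cardiomyocyte sums are lower in MI (32063.5 to 38711 CPM) than in Sham (44559.5 to 49500.1 CPM), and the other 3 sums are higher. Ttn makes up most of the cardiomyocyte sum, and Dkk3 and Nr2f2 make up most of the atrial sum.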

How the data were processed

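RNA from formalin-fixed, paraffin-embedded sections of 12 rat hearts was sequenced from strand-specific libraries after ribosomal RNA depletion, although the labels name polyA RNA. The authors mapped reads with STAR 2.6.1c to mRatBN7.2 (Ensembl annotation) and deposited raw htseq-count counts per gene, without normalization; whether counting used strand is not given in the sources used here, and Npr1, Corin and Furin overlap other RefSeq genes. The 5 summary lines were left out (reads on no gene, 37.9% to 46.6%; ambiguous, 3.18% to 3.84%; not unique, 2.05% to 2.53%). Libraries held 6228706 to 19031695 reads on genes, 50.2% to 58.6% of them mitochondrially encoded; limits for low counts cover counting error only.

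Genes with at least 10 reads in total (18182) were tested with edgeR 4.0.16 (quasi-likelihood, TMM, 3 groups in one fit, Benjamini-Hochberg adjusted p-values, threshold 0.05; R 4.3.3), after a test on simulated data. SE was the fold change divided by the square root of F. Log2 CPM used a prior count of 1. Ratios were tested over rats with two-sided exact permutation tests (scipy 1.17.1). Named genes were the 8 members, list genes past the threshold, up to 3 abundant others per list, and the 3 most like genes of each member; Gata4 and 5 atrial markers were named after their values were seen, and 1 marker gene is not reported here. Members and lists were chosen with earlier results of these data known. Alternatives were DESeq2 1.42.0, its size factors, TMM without mitochondrial genes, other filters, fits of 2 groups, rat 66 in MI, a prior count of 0.25 and leaving out each rat. Each library is 1 rat, with no batch in the labels. The MI + UA library that the authors excluded as an outlier was not analysed here.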

Additional observations from a re-analysis of the deposited data

Results flagged for a closer look

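In 3 of 30 groups of 4 hearts examined, over 10 measures, 1 heart stood apart by Dixon's ratio, the gap to the nearest heart divided by the range, with a critical value of 0.829; chance gives about 1 in 20. Nppb in Sham was lowest in rat 12 (ratio 0.882), at a log2 CPM of 6.65 against 7.76 to 7.91 in the other Sham hearts. The log2 ratio of Npr3 to Npr1 in MI + UA was lowest in rat 66 (ratio 0.89), the rat whose group differs between sources, at -1.95 against -1.01 to -0.89. Corin relative to the cardiomyocyte markers in MI was highest in rat 61 (ratio 0.841), at -4.56 against -4.88 to -4.83.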

How the results depend on the processing

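The rise of Nppa kept its direction and its side of the threshold under every alternative run, with log2 fold changes of 2.46 to 3.08 in MI versus Sham and 2.09 to 2.71 in MI + UA versus Sham. In MI versus Sham, Npr3 came past the threshold with no filter on low counts (0.66), in a fit of 2 groups (0.64) and without MI + UA rat 29 (0.67; leaving out each rat gave 0.45 to 0.77), and Furin with DESeq2 (-0.26) and with both infarcted groups against Sham (-0.23, chosen after seeing the data). Nppb ranged from -0.046 to 0.37 with each rat left out. In MI + UA versus Sham, Npr3 passed without rat 66 (0.71; range 0.35 to 0.71), and Nppb (-0.032 to 0.30), Npr1 (-0.017 to 0.22; -0.017 with rat 66 in MI) and Corin (-0.15 to 0.023) changed sign. In MI + UA versus MI, signs changed with each rat left out for Nppb (-0.18 to 0.23), Npr1 (-0.16 to 0.076), Npr2 (-0.067 to 0.013), Npr3 (-0.30 to 0.055) and Furin (-0.0073 to 0.097), and for the Npr3 to Npr1 ratio (-0.21 to 0.19), while Nppa ranged from -0.58 to -0.14. With rat 66 in MI they changed for Npr3 (0.17), Corin (-1.08e-05), the Nppa to Nppb ratio (0.12) and the Npr3 to Npr1 ratio (0.35). None of the differences that changed sign passed a test. Leaving out MI rat 57 turned Nppb and Furin, MI rat 36 turned Npr1 and Npr2, MI + UA rat 58 turned Nppb, Npr1 and Npr2, and MI + UA rat 66 turned Npr3; the Npr3 to Npr1 ratio turned without MI rat 61, MI rat 89 or MI + UA rat 66. Pearson's r of Nppa with Nppb in infarcted hearts was -0.17 without the highest and the lowest heart in Nppa, while Spearman's rho was 0.14. In MI + UA versus MI, 3 genes (Enc1, Col2a1 and a gene without a symbol) passed with no filter and 1 (Enc1) without MI rat 36 (range 0 to 1). The cause of these changes was not tested. No paired analysis was possible because each rat belongs to a single group and no replicate numbers are shared. With 4 rats a group and 17 Nppc reads, small differences were not detectable.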
